A study of Mus musculus with 2 samples.

Results

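The genes described here are 8 of the 32285 genes counted in this series: Nkx2-1, Lhx6, Lhx8, Sox6, Satb1, Maf, Nxph1 and Nxph2, taken by symbol as a set tied to interneurons of the medial ganglionic eminence (MGE). Single cells were profiled by droplet-based 3′-end RNA sequencing from the dorsal telencephalon of mouse embryos at embryonic day 14.5. Both libraries came from WT control embryos, so that the series holds 1 group and no treatment. The series is described as control animals of an Eomes-Cre line, the sample titles carry the name EomesDot, and the methods of the study give C57BL/6J as the strain. How these names relate is not given in the sources used here. The titles number the libraries 2 and 4, and the names replicate 2 and replicate 4 keep these numbers. The study gives a total of embryos for its single-cell data, but not how many went into each library. All p-values measure only the spread between these 2 samples, which may be technical.

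The MGE is a ventral swelling of the embryonic telencephalon that produces most Sst-expressing and parvalbumin-expressing cortical interneurons, which then migrate tangentially into the cortex. Nkx2-1 encodes the homeodomain factor that sets MGE identity in progenitors and is switched off in interneurons bound for the cortex, whereas its target Lhx6, a LIM-homeodomain factor, stays on in the migrating cells. Lhx8 is the related LIM-homeodomain factor of ventral cholinergic and pallidal neurons. Sox6, a SoxD factor, and Satb1, a chromatin organiser, act after Lhx6 in the maturation of MGE interneurons, and Maf encodes the bZIP factor c-Maf of the same lineage. Nxph1 and Nxph2 encode neurexophilins, secreted ligands of alpha-neurexins.

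In GRCm38 (mm10), the build of the count tables, Lhx6 (ENSMUSG00000026890) lies at chr2:36081950-36105992 and Nxph2 (ENSMUSG00000069132) at chr2:23321246-23401986. Sox6 (ENSMUSG00000051910) spans chr7:115470872-116040776 and Nxph1 (ENSMUSG00000046178) chr6:8948614-9249619. Satb1 lies at chr17:51736187-51833290, Maf at chr8:115703253-115706894, Nkx2-1 at chr12:56531935-56536908 and Lhx8 at chr3:154306288-154330560. RefSeq promoters (GRCm38.p6) were matched for 7 of the 8 genes, with 18 annotated starts in all, and Maf was the gene without an entry. The 250 bases before the most upstream start of that table, which for Lhx6, Sox6 and Nxph1 lies inside the annotated gene span, are shown for Lhx6 and Nxph2, whose counts lay mostly in GABAergic cells, for Nxph1 as the paralogue of Nxph2, and for Sox6, which was also high in progenitors. Each is written 5′ to 3′ on the strand of its gene, and capitals mark CAAGTG, the core letters bound by NKX2 factors.
Lhx6, chr2:36105409-36105658, minus strand: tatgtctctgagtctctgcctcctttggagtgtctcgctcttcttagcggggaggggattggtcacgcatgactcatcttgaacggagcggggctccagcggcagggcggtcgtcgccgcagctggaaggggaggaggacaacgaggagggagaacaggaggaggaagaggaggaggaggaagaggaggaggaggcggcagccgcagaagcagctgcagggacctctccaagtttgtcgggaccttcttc
Sox6, chr7:116038745-116038994, minus strand: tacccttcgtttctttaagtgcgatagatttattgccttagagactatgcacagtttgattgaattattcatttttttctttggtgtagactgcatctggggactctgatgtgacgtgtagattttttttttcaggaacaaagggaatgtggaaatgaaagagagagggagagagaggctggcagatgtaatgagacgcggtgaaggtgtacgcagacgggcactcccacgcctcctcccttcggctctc
Nxph1, chr6:8949769-8950018, plus strand: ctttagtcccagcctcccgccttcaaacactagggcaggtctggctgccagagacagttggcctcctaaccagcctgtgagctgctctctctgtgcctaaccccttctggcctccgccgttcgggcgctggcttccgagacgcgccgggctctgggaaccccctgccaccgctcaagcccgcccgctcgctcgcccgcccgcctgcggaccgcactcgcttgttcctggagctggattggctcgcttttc
Nxph2, chr2:23320996-23321245, plus strand: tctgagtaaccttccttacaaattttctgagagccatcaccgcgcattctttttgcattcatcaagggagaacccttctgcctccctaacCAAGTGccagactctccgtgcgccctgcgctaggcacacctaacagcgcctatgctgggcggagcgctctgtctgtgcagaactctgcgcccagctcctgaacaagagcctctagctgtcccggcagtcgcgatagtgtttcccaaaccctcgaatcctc

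Short motifs were searched on both strands of all 18 windows, and none of them contains another. CAAGTG was in 3 windows (Nxph2, 1 Sox6 start and 1 Satb1 start) and in 11.6% of the 32851 mouse promoter windows of the same length. The SOX core AACAAT was in 3 windows (Nkx2-1, 1 Lhx6 start and 1 Sox6 start) against 9.42% of all windows, and the Maf half-site TGCTGA was in 3 windows (Nkx2-1 and 2 Sox6 starts) against 16.1%. The LIM-homeodomain core TAATTA was in 0 of the 18 windows and in 4.84% of all. A match describes these letters in these windows and no binding was measured.

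The 2 libraries held 1712 and 2589 barcodes with 40267872 and 49422007 UMIs (unique molecular identifiers, counts of captured mRNA molecules), and 1199 and 1923 cells were kept, with a median of 30810 and 22826 UMIs per cell. Clusters were named from markers that include none of the 8 genes, and the 8 genes, Sst and 18 partner genes of the lineage were left out of clustering. The largest classes were excitatory neuron-like cells (581 in replicate 2 and 895 in replicate 4), RGC-like cells, the radial glial progenitors (279 and 452), GABAergic neuron-like cells (83 and 248) and IPC-like cells, the intermediate progenitors (124 and 189). The GABAergic class was made up differently in the 2 libraries. It held 54 and 82 MGE interneuron-like cells, 5 and 29 CGE (caudal ganglionic eminence) interneuron-like cells, 6 and 40 dividing precursor-like cells, 1 and 65 striatal projection neuron-like cells, and 17 and 32 cells of sub-clusters without a name. Of the latter, 22 cells formed a mixed sub-cluster seen in replicate 4, led by Sst and Npy but with raised CGE markers Prox1, Nr2f2 and Adarb2. The striatal-like cells are of a ventral type, although the labels give dorsal tissue. Levels are UMIs per 1000000 UMIs of the summed cells (CPM), and intervals are exact 95% intervals that cover counting error only.

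Of the 8 genes, 6 were high in MGE interneuron-like cells of both libraries. For each of these 6 that class had the highest level of the 9 classes compared (the other GABAergic cells pooled as 1). Its library values did not overlap those of the next class. Within that pool, CGE interneuron-like cells had 1437 (5 cells) and 3424 CPM (29 cells) of Sox6 in replicates 2 and 4. MGE interneuron-like cells had 2543 and 2204 CPM. Nkx2-1 and Lhx8, the progenitor and ventral neuron factors, stayed under 5 CPM in all 9 classes, with Nkx2-1 higher in 1 small sub-cluster of replicate 4. The 6 genes parted in where else they were found. Lhx6 and Nxph2 were nearly absent from the progenitors and neurons of the excitatory lineage, Nxph1 was found there in few cells, Maf was also found in meningeal-like and hem or choroid plexus-like cells and in an unnamed cluster led by macrophage genes, whose level in replicate 4 (453 CPM) was close to that of MGE interneuron-like cells (457 CPM), and Sox6 and Satb1 were found across progenitors and neurons.

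**Figure D1:**
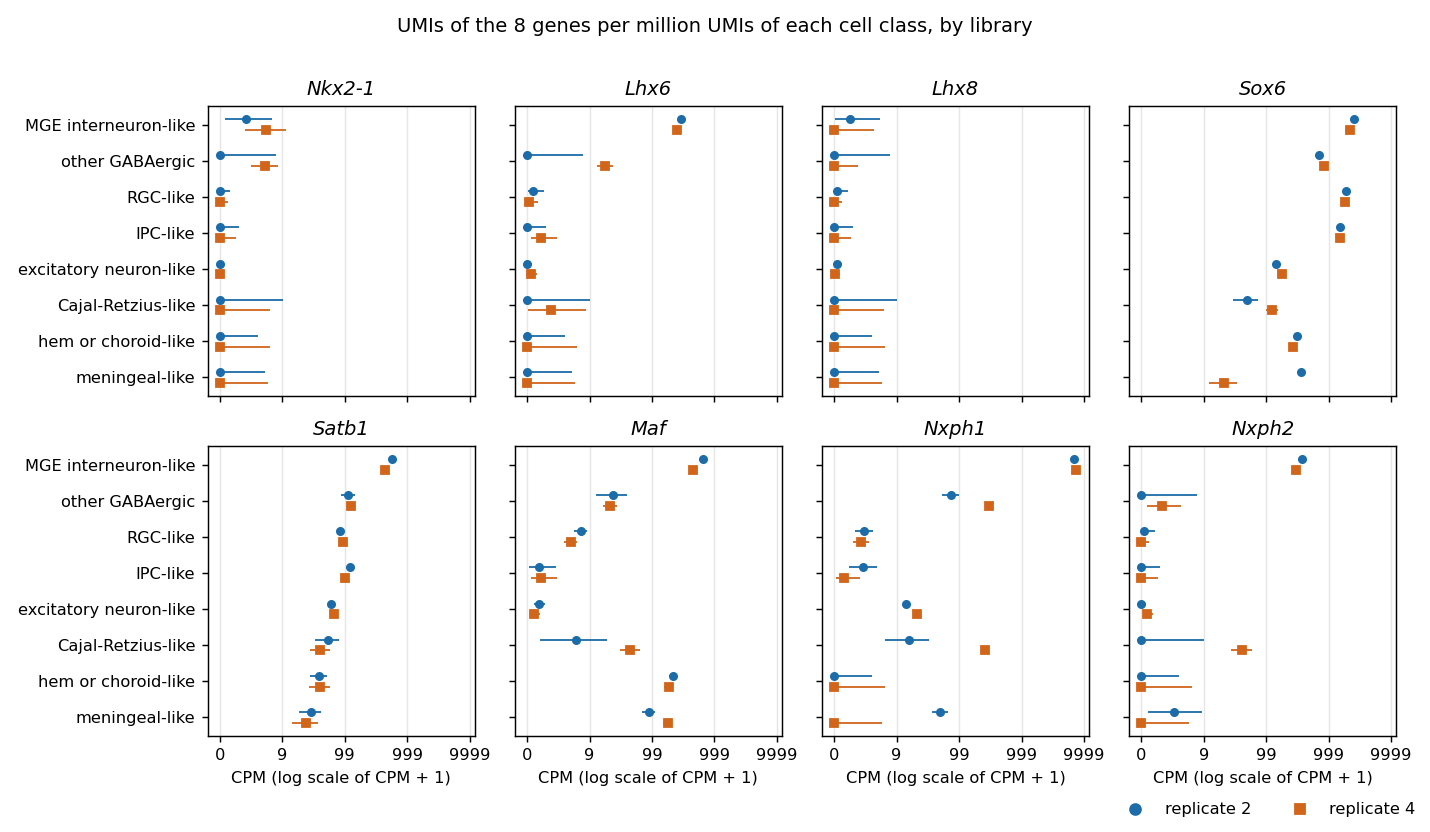
UMIs of each of the 8 genes per 1000000 UMIs of a cell class (x axis, log scale of CPM + 1) in 8 classes (y axis), with a blue circle for replicate 2, an orange square for replicate 4 and bars for exact 95% counting intervals. Lhx6, Satb1, Maf, Nxph1 and Nxph2 have their highest points in the MGE interneuron-like row, Sox6 is nearly as high in the RGC-like and IPC-like rows, and the points of Nkx2-1 and Lhx8 stay below 5 CPM in all rows.

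Nkx2-1 had 2 UMIs in replicate 2 and 16 in replicate 4, all in GABAergic neuron-like cells. In MGE interneuron-like cells it stood at 1.61 CPM (interval 0.195 to 5.80) in replicate 2 and at 4.54 CPM (1.48 to 10.6) in replicate 4. The intervals overlap, and the 2 libraries could not be told apart at this depth. The mixed sub-cluster carried 11 of the UMIs of replicate 4, in 4 of its 22 cells, which is 34.2 CPM (17.1 to 61.2). Excitatory neuron-like and RGC-like cells had 0 UMIs of Nkx2-1 in both libraries. Against a floor of 3 UMIs over both libraries, the GABAergic level was 47.5-fold higher than the excitatory level and 21.9-fold higher than the RGC-like level. The exact lower limits of these ratios were 34.8 and 16.1. These folds and limits rest on replicate 4, since the 2 UMIs of replicate 2 lie under a floor of 3 UMIs and give no fold there.

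Lhx8 had 4 UMIs in replicate 2 and 1 in replicate 4. They were spread over GABAergic, RGC-like and excitatory neuron-like cells, with at most 2 in any class and library, so that no class stood out. Neither Nkx2-1 nor Lhx8 passed the filter on low counts in the fits reported below. Nkx2-1 passed it with the compared classes alone in the fit, where it was called higher in GABAergic than in excitatory neuron-like cells (edgeR adjusted p = 0.0203). Excitatory neuron-like cells had 0 UMIs of it, so that it passed through the GABAergic sums and this call is a description.

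Lhx6 stood at 292 CPM in replicate 2 and 254 CPM in replicate 4 in MGE interneuron-like cells (273 ± 26.7 CPM, mean ± SD, n = 2). In the other GABAergic neuron-like cells it had 0 UMIs in replicate 2 and 44 UMIs (17.0 CPM) in replicate 4, 35 of them in the mixed sub-cluster. Excitatory neuron-like cells had 0 and 4 UMIs and RGC-like cells 2 and 1. Endothelial-like cells had 10 UMIs in 4 of 9 cells of replicate 2 (34.0 CPM) and 2 UMIs in 1 of 18 cells of replicate 4, and an unnamed cluster of shallow barcodes had 6 UMIs (16.4 CPM) and 0. MGE interneuron-like cells thus held 95.3% and 83.6% of all Lhx6 UMIs of the retained cells of the 2 libraries. At full depth 98.1% and 80.5% of MGE interneuron-like cells had an Lhx6 UMI, and after each cell was thinned to 5000 UMIs the shares were 67.9% and 58.1%. The background share in excitatory neuron-like cells, thinned alike, was 0% and 0.115%. MGE interneuron-like cells were shallower (medians of 23451 and 10737 UMIs) than excitatory neuron-like cells (34164 and 24862).

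Sox6 was high in more than 1 lineage. MGE interneuron-like cells stood at 2543 and 2204 CPM, RGC-like cells at 1857 and 1820 CPM, and IPC-like cells at 1531 and 1527 CPM in replicates 2 and 4. The order of these classes was the same in both libraries. Excitatory neuron-like cells stood much lower, at 143 and 176 CPM, and lower still under the other filters and clusterings, at 58.3 to 129.6 and 62.9 to 113 CPM. Within the GABAergic class, CGE interneuron-like cells had 1437 CPM in replicate 2 (5 cells) and 3424 CPM in replicate 4 (29 cells), while striatal projection neuron-like cells of replicate 4 had 44.8 CPM. After thinning, 96.2% and 94.6% of MGE interneuron-like cells and 98.8% and 97.8% of RGC-like cells had a Sox6 UMI, against 22.5% and 24.4% of excitatory neuron-like cells. The share in excitatory cells was thus far from 0, and the part of free RNA in it was not tested.

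Satb1 was detected in every class. It stood at 573 and 435 CPM in MGE interneuron-like cells, at 111 and 126 CPM in the other GABAergic neuron-like cells and at 120 and 99.1 CPM in IPC-like cells. The ranges of the latter 2 classes overlap. RGC-like cells had 84.1 and 92.7 CPM and excitatory neuron-like cells 59.5 and 66.5 CPM. After thinning, a Satb1 UMI was found in 81.1% and 78.4% of MGE interneuron-like cells and in 24.2% and 27.0% of excitatory neuron-like cells.

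Maf stood at 653 and 457 CPM in MGE interneuron-like cells and at 22.5 and 20.5 CPM in the other GABAergic neuron-like cells. In the excitatory lineage it was rare, with 6.25 and 3.97 CPM in RGC-like cells and 0.540 and 0.306 CPM in excitatory neuron-like cells. It was also found in other classes. Hem or choroid plexus-like cells had 213 and 183 CPM, meningeal-like cells 87.6 and 178 CPM, and the unnamed cluster of shallow barcodes, led by the macrophage genes Lyz2, Pf4 and Mrc1, had 317 and 453 CPM. C1qa and Mrc1, which that cluster carried, had 0 UMIs in MGE interneuron-like cells of both libraries.

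Nxph1 stood at 6982 and 7483 CPM in MGE interneuron-like cells and at 73.1 and 298 CPM in the other GABAergic neuron-like cells, where the mixed sub-cluster had 656 of the 772 UMIs of replicate 4. In excitatory neuron-like cells it stood at 13.2 and 19.9 CPM, and these UMIs sat in few cells, 268 UMIs in 12 cells of replicate 2 and 456 UMIs in 26 cells of replicate 4. Under the other filters and clusterings this level ranged from 2.80 CPM (5% mitochondrial UMIs) to 42.8 CPM (doublets kept) in replicate 2 and from 10.8 to 27.3 CPM in replicate 4. Cajal-Retzius-like cells had 6 UMIs in replicate 2 and 180 UMIs (255 CPM) in replicate 4, the latter from 8 cells. Nxph2 stood at 379 and 304 CPM in MGE interneuron-like cells, which held 98.9% and 90.3% of its UMIs. Among the other GABAergic neuron-like cells it had 0 and 3 UMIs, RGC-like cells had 1 and 0, and excitatory neuron-like cells 0 and 5. After thinning, 100% and 98.6% of MGE interneuron-like cells had a Nxph1 UMI and 62.3% and 54.1% had a Nxph2 UMI, against 1.22% and 1.84% of excitatory neuron-like cells for Nxph1 and 0% in both libraries for Nxph2.

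The MGE interneuron-like class was made of 2 sub-clusters, both present in each library. The Sst-rich one (35 and 34 cells) had 842 and 1200 CPM of Sst, the neuropeptide somatostatin, and the Sst-poor one (19 and 48 cells) 55.8 and 49.0 CPM. Satb1 stood at 750 and 555 CPM in the Sst-rich sub-cluster and at 216 and 275 CPM in the Sst-poor one, and the ranges do not overlap. Nxph2 likewise stood at 466 and 342 CPM against 204 and 251 CPM. Maf, at 609 and 377 CPM against 742 and 565 CPM, was lower in the Sst-rich sub-cluster within each library, although the ranges overlap. Lhx6 (306 and 300 against 264 and 194 CPM) was higher in it within each library, while Sox6 and Nxph1 differed in opposite directions in the 2 libraries. Median depth was 21839 and 15513 UMIs in the Sst-rich and 23505 and 7401 UMIs in the Sst-poor sub-cluster. The mixed sub-cluster of replicate 4 had Sst at 1053 CPM with Lhx6 at 109, Satb1 at 404, Sox6 at 1370 and Nxph1 at 2038 CPM, but Maf at 28.0 CPM and 0 Nxph2 UMIs. These sub-clusters were found in the same cells, and their differences are descriptions with no test.

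**Figure D2:**
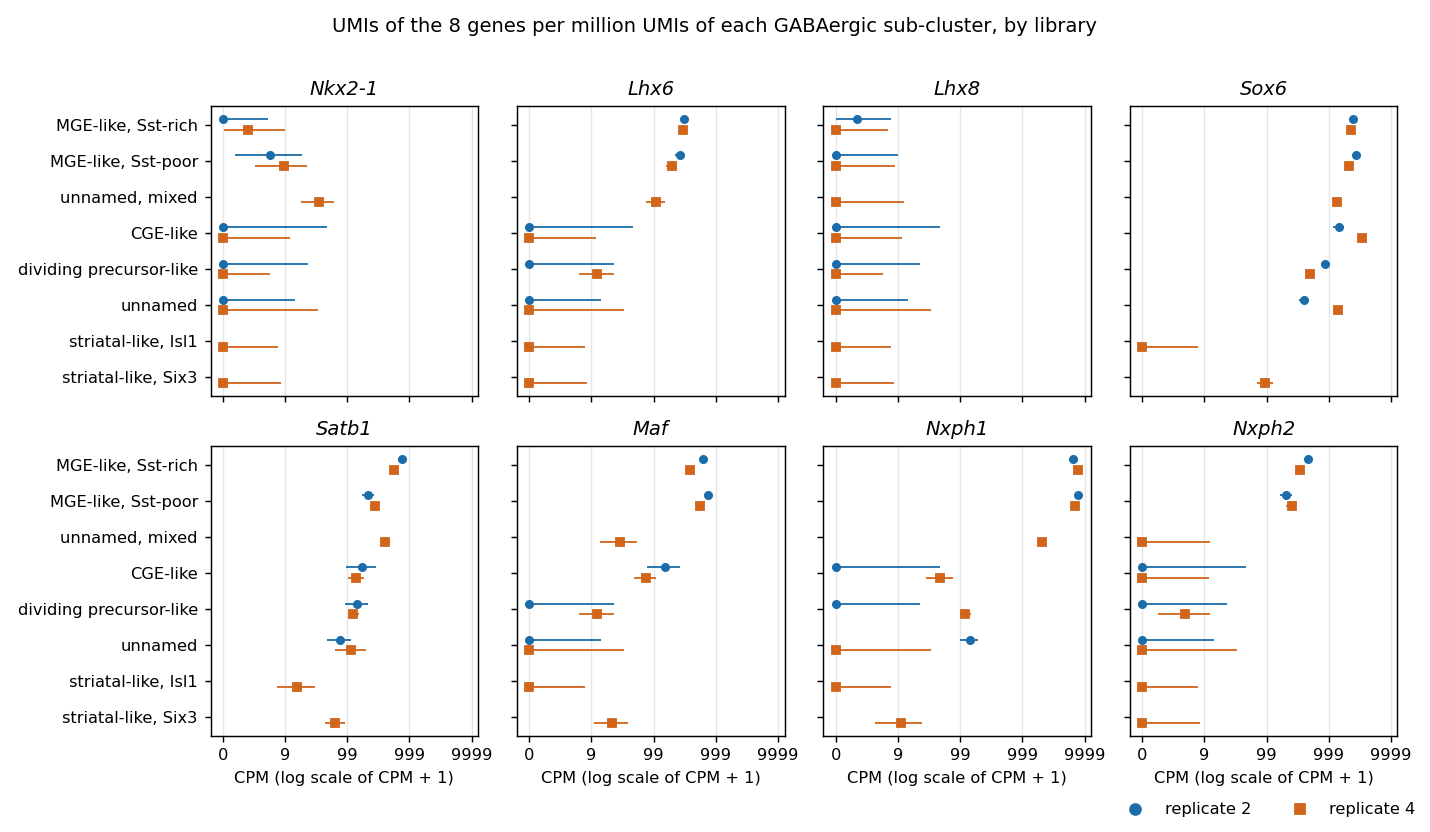
UMIs of each of the 8 genes per 1000000 UMIs (x axis, log scale of CPM + 1) in the 8 GABAergic sub-clusters (y axis), with a blue circle for replicate 2, an orange square for replicate 4 and bars for exact 95% counting intervals; sub-clusters with under 5 cells in a library have no point there. Satb1 and Nxph2 lie higher in the Sst-rich than in the Sst-poor MGE-like row, and the mixed row joins Lhx6 at 109 CPM and Nxph1 at 2038 CPM to Nxph2 at 0.

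The first comparison asked whether the genes set MGE interneuron-like cells apart from the other GABAergic neuron-like cells. Of the 6 genes tested, 5 were higher in MGE interneuron-like cells by edgeR's quasi-likelihood test (adjusted p under 0.05), where 10.7% of 12927 genes were called (3.56% higher and 7.16% lower). Satb1 was higher by 2.18 ± 0.18 (log2 fold change ± SE, adjusted p = 2.95e-05), Maf by 4.83 ± 0.48 (adjusted p = 6.80e-05) and Nxph1 by 5.33 ± 1.07 (adjusted p = 0.00732). In replicates 2 and 4 the ratio of levels was 95.5 and 25.1 for Nxph1 and 5.19 and 3.44 for Satb1. Lhx6 had 0 UMIs in the second group of replicate 2 and 44 in that of replicate 4. It was 52.0-fold higher over a floor of 3 UMIs in replicate 2 and 14.96-fold higher (interval 10.9 to 21.1) in replicate 4. For Nxph2, with 3 UMIs in the second group, the ratio of pooled levels was 357 (interval 122 to 1737). Sox6 differed by 1.72 ± 0.70 and did not pass the test (adjusted p = 0.153), with 697 and 854 CPM in the other GABAergic cells. Among the alternatives, the call of Nxph1 was lost at Leiden resolution 2 (edgeR adjusted p = 0.0921) and that of Nxph2 with DESeq2 (adjusted p = 0.114). Sox6 was called with the compared classes alone (edgeR adjusted p = 0.0121) and without the filter on low counts (2.35e-12). Lhx6 and Nxph2 passed the filter on low counts through the MGE interneuron-like sums, so that the count of 5, their calls included, is a description. The classes were also drawn from one part of each cell's UMIs and the test run on the other part. There 5 of the 6 genes were called, where 8.29% of 11268 genes were called. This count again includes Lhx6 and Nxph2 and is a description too.

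Of the 18 partner genes of the lineage, 14 were tested and 9 were called, 7 higher and 2 lower. The lower ones were Zfhx3, a factor of striatal and other neurons (-6.33 ± 0.73, adjusted p = 0.000157), and St18, a zinc-finger factor of MGE-derived projection neurons (-3.87 ± 0.55, adjusted p = 0.000599). The largest of the higher ones were Ackr3, the scavenging receptor for Cxcl12 (3.90 ± 0.41), and Cux2, a homeodomain factor (3.84 ± 0.28). Ackr3 and Cux2 are among 8 partner genes that also served to name the MGE interneuron-like class, so that their direction is not independent evidence. The 4 partner genes too low to test were Gbx1, Gbx2, Shh and Nkx6-2, all MGE or preoptic progenitor genes.

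GABAergic neuron-like cells were then set against excitatory neuron-like and RGC-like cells. These comparisons share the GABAergic sums. Against excitatory neuron-like cells all 6 tested genes were higher, where 20.3% of 14709 genes were called (9.49% higher and 10.8% lower). Lhx6 and Nxph2 passed the filter on low counts through the GABAergic sums, so that this count too is a description. They had 4 and 5 UMIs in excitatory neuron-like cells, all in replicate 4, where the ratio of levels was 502 (interval 194 to 1855) for Lhx6 and 418 (interval 177 to 1296) for Nxph2. In replicate 2 the levels were 1389-fold and 1801-fold higher over a floor of 3 UMIs. Maf was higher by 9.32 ± 0.77 (adjusted p = 1.11e-05) and Nxph1 by 7.67 ± 1.15 (adjusted p = 0.000815). The folds of Sox6 (3.22 ± 0.78, adjusted p = 0.0119) and Satb1 (2.24 ± 0.26, adjusted p = 0.000115) were smaller. In replicates 2 and 4 the ratio of levels was 13.91 and 7.15 for Sox6, 7.30 and 3.29 for Satb1, 859 and 493 for Maf and 373 and 122 for Nxph1. Of the 14 partner genes tested 10 were called, all higher, among them Erbb4, a neuregulin receptor (9.56 ± 1.40), and Npy, a neuropeptide (6.01 ± 1.11).

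Against RGC-like cells 5 of the 6 genes were higher, where 45.5% of genes were called (22.6% higher and 22.9% lower). Nxph1 was higher by 11.07 ± 1.36 (adjusted p = 7.99e-05), Maf by 6.01 ± 0.64 (adjusted p = 1.63e-05) and Satb1 by 1.98 ± 0.26 (adjusted p = 8.92e-05). Lhx6 and Nxph2 were called too, but rest on 3 and 1 UMIs in RGC-like cells and passed the filter through the GABAergic sums, so that the count of 5 is again a description. The ratio of pooled levels was 838 (interval 286 to 4073) for Lhx6 and 2956 (interval 529 to 116900) for Nxph2. Sox6 differed by -0.08 ± 0.71 (adjusted p = 0.945). With 1989 and 1257 CPM in the GABAergic and 1857 and 1820 CPM in the RGC-like sums, its groups overlap, and the standard error leaves room for a change of either sign. With MGE interneuron-like cells in place of all GABAergic cells the difference of Sox6 was 0.55 (adjusted p = 0.525). Partner genes were called in 13 of 14 cases, all higher. Of the 8 genes, Satb1, Maf and Nxph1 had larger folds over RGC-like cells in replicate 2, with ratios of levels of 5.17 and 2.36 for Satb1, 74.3 and 37.9 for Maf and 2497 and 1456 for Nxph1 in replicates 2 and 4. MGE interneuron-like cells made up 54 of the 83 GABAergic cells of replicate 2 and 82 of the 248 of replicate 4, and the part of this make-up was not tested.

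RGC-like and excitatory neuron-like cells, which are a progenitor and a neuron of the pallium, differed in 3 of the 6 genes, where 49.5% of genes were called (23.7% higher and 25.7% lower). Sox6 was higher in RGC-like cells by 3.30 ± 0.78 (adjusted p = 0.00401) and Maf by 3.31 ± 0.82 (adjusted p = 0.00542). Nxph1 was lower by 3.40 on the log2 scale (SE 1.10, adjusted p = 0.0243), and this difference rests on the few Nxph1-bearing excitatory cells given above. The call of Nxph1 was lost with doublets kept (adjusted p = 0.201), with a limit of 5% mitochondrial UMIs (0.744), with the DESeq2 test (0.103) and with the held-out genes kept in clustering (0.0532), and that of Maf with doublets kept (0.180). Satb1 differed by 0.26 ± 0.25 (adjusted p = 0.414). Lhx6 and Nxph2 had at most 5 UMIs in any of the 4 sums, and their difference was not detectable at this depth. Of the partner genes 2 were higher in RGC-like cells, among them Etv1 (2.49 ± 0.65), an ETS factor named after its value was seen, and 6 were lower, Mef2c (-3.55 ± 0.82), Ackr3 (-3.17 ± 0.52) and St18 (-3.08 ± 0.43) by the most.

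**Figure D3:**
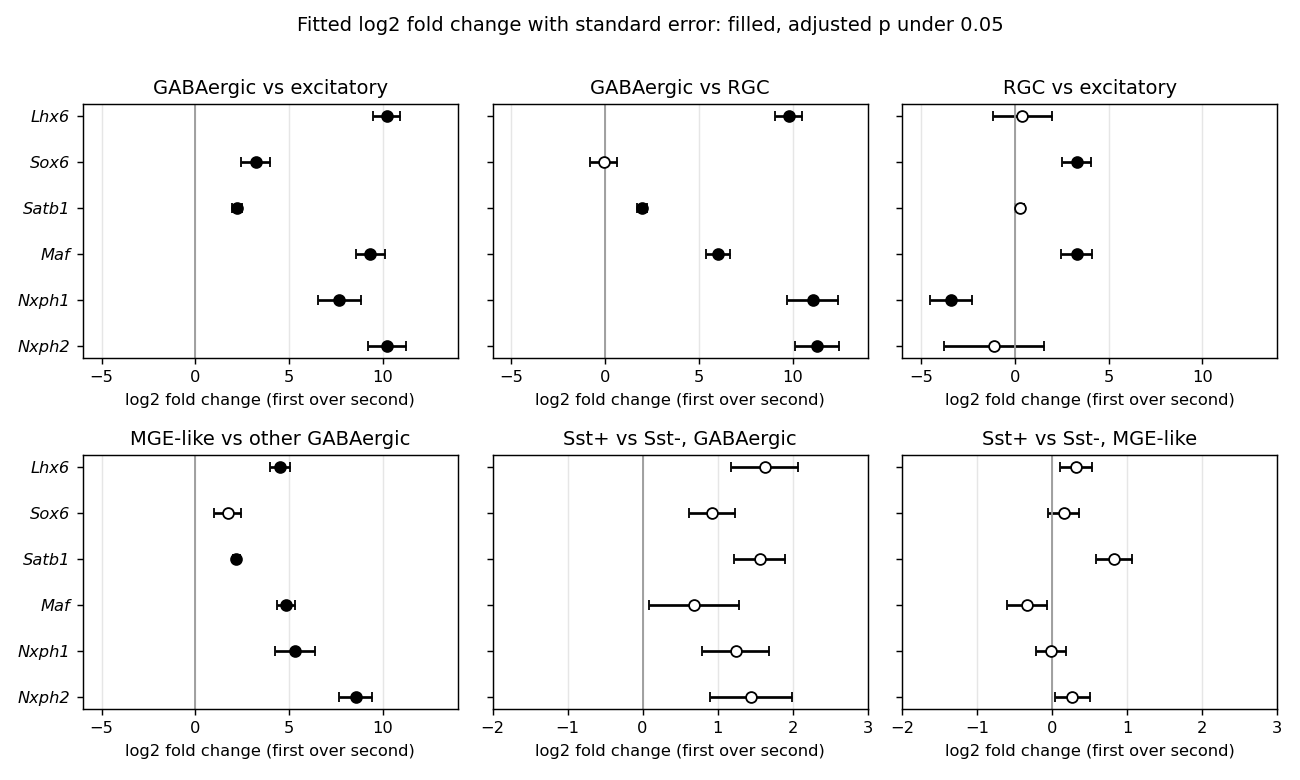
Log2 fold change of the first over the second class (x axis) with standard error bars for the 6 tested genes (y axis) in 6 comparisons, filled where the adjusted p was under 0.05. Points of Lhx6 and Nxph2 against RGC-like cells, and of Nxph2 against other GABAergic cells, rest on 1 to 3 UMIs in the second class, those against excitatory cells on 4 and 5, and all points of the Sst comparisons are open.

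Sst is the peptide that marks 1 of the interneuron types made by the MGE, and its co-detection with the 8 genes was followed within the GABAergic class. Cells with at least 1 Sst UMI numbered 24 of 83 in replicate 2 and 35 of 248 in replicate 4. Of these, 23 and 25 were MGE interneuron-like, and 9 of the others in replicate 4 were in the mixed sub-cluster. Sst-positive cells were deeper than Sst-negative cells (medians of 25974 and 15017 against 20620 and 11512 UMIs), so that shares are given after thinning to 5000 UMIs. Sst was then called on the thinned counts, which gave 18 and 27 Sst-positive and 63 and 206 Sst-negative cells.

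In both libraries all Sst-positive cells had a UMI of Sox6 and of Nxph1 after thinning, with lower exact limits of 81.5% and 87.2%. The shares in Sst-negative cells were 76.2% and 56.8% for Sox6 and 58.7% and 32.0% for Nxph1. Lhx6 was found in 72.2% and 66.7% of Sst-positive against 36.5% and 15.1% of Sst-negative cells, and Satb1 in 94.4% and 74.1% against 55.6% and 44.2%. At full depth the Lhx6 shares were 95.8% and 91.4% against 50.8% and 21.1%. Nxph2 was found in 72.2% and 37.0% against 31.7% and 14.6%, and Maf in 72.2% and 63.0% against 55.6% and 28.2%. The 6 genes thus had higher shares in Sst-positive cells of each library, while the intervals overlapped for Lhx6, Sox6 and Maf in replicate 2 and for Nxph2 in replicate 4. With cells thinned to 2500 UMIs (13 and 24 Sst-positive cells) the shares of the 6 genes were still higher in Sst-positive cells of each library, but Lhx6 stood at 38.5% against 35.7% in replicate 2 and Satb1 at 37.5% against 26.9% in replicate 4. Nkx2-1 was found at full depth in 0 of 24 and 5 of 35 Sst-positive cells, which is 14.3% (interval 4.81 to 30.3%) in replicate 4, against 1.88% of the Sst-negative cells there. Of these 5 cells 4 were in the mixed sub-cluster. Within MGE interneuron-like cells of replicate 4 Nkx2-1 was found in 1 of 25 Sst-positive and 4 of 57 Sst-negative cells, and after thinning the GABAergic class had 1 of 27 and 2 of 206. Lhx8 had 0 UMIs in Sst-positive cells of either library, which limits the share of cells with a UMI to 14.3% and 10.0% and does not limit the share that expressed it.

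**Figure D4:**
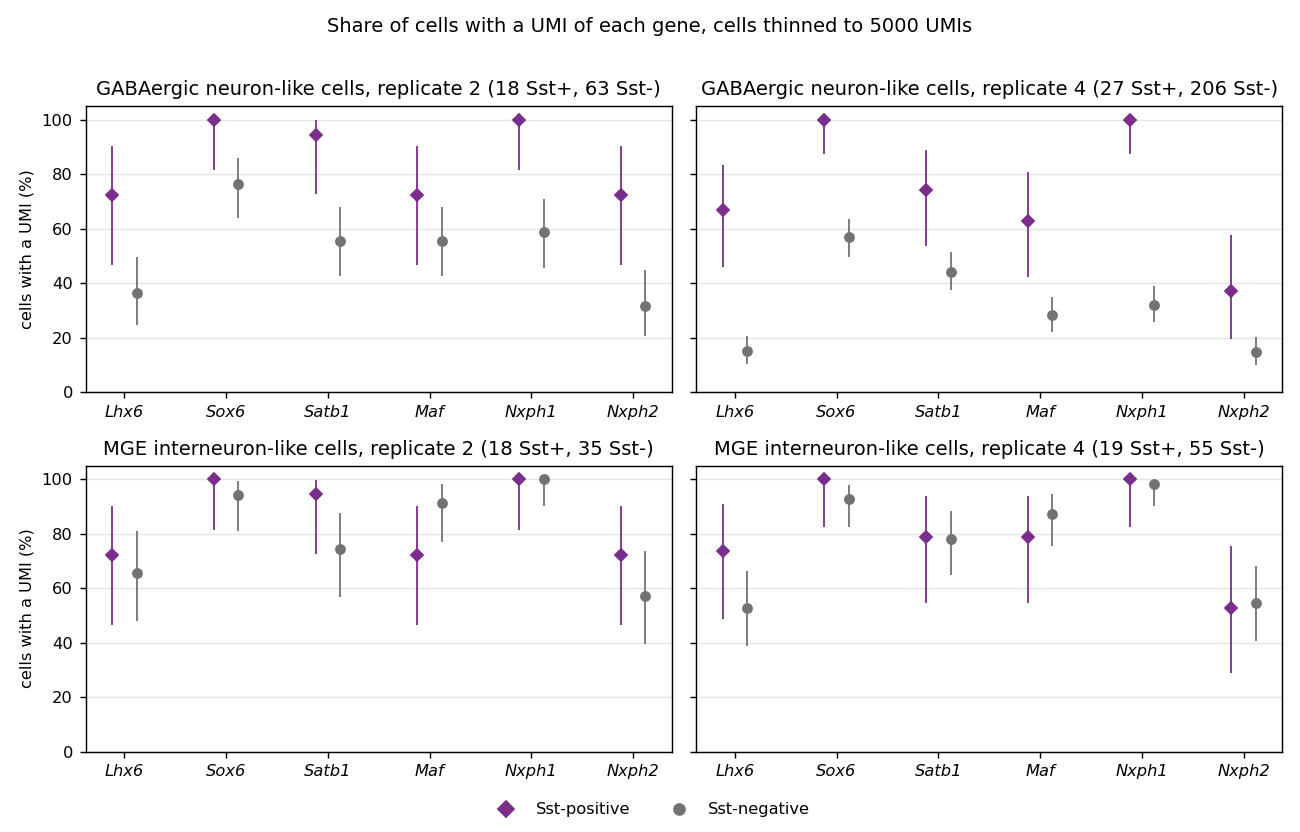
Share of cells with a UMI of each of the 6 genes (y axis, percent) after thinning to 5000 UMIs, for Sst-positive (purple diamonds) and Sst-negative cells (grey circles) of the GABAergic class (upper panels) and of the MGE interneuron-like class (lower panels), by library, with exact 95% intervals. In the upper panels the diamonds lie above the circles for all 6 genes, whereas in the lower panels the intervals overlap and Maf lies lower in Sst-positive cells.

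Within MGE interneuron-like cells the differences after thinning to 5000 UMIs were smaller than in the GABAergic class for Lhx6, Sox6, Satb1, Nxph1 and Nxph2. That of Lhx6 still reached 21.0 points in replicate 4. Lhx6 was found in 72.2% and 73.7% of Sst-positive against 65.7% and 52.7% of Sst-negative cells, and Satb1 in 94.4% and 78.9% against 74.3% and 78.2%. Maf went the other way, with 72.2% and 78.9% of Sst-positive and 91.4% and 87.3% of Sst-negative cells. All of these pairs of intervals overlap within each library. Without thinning, Maf turned in replicate 4, with 92.0% of Sst-positive against 89.5% of Sst-negative cells. Thinned to 2500 UMIs, the direction turned for Lhx6 in replicate 2 (41.7% against 59.5%) and for Satb1 in replicate 4 (50% against 52.3%).

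The levels were then tested over the summed cells of each library. In the GABAergic class 0 of the 6 genes passed edgeR's test between Sst-positive and Sst-negative cells, where 0.351% of 9129 genes were called (0.0657% higher and 0.285% lower). An unadjusted p under 0.05 was found for 5 of the 6 and for 1338 of the 9129 genes. DESeq2 called 1 of the 6, Satb1 (adjusted p = 0.0100), where it called 2.92% of genes. Satb1 stood at 725 and 531 CPM in Sst-positive and at 285 and 159 CPM in Sst-negative cells (difference 1.56 ± 0.34, adjusted p = 0.110). Lhx6 stood at 324 and 256 CPM against 143 and 55.6 CPM (1.63 ± 0.45, adjusted p = 0.172). For both genes the groups do not overlap. Sox6 (0.93 ± 0.31), Nxph1 (1.24 ± 0.45) and Nxph2 (1.44 ± 0.55) had adjusted p between 0.242 and 0.304, and Maf (0.69 ± 0.60) had 0.674. With the library as a replicate block, which pairs the sums of the same library, 5 of the 6 genes were called: Satb1 (adjusted p = 0.00271), Nxph2 (0.00528), Lhx6 (0.00572), Nxph1 (0.0208) and Sox6 (0.0285). Under that block 5.82% of genes were called. The partner gene called in the fit without the block was Npy, a peptide often made by Sst cells (4.97 ± 0.46, adjusted p = 0.0402). Sst-negative cells of the 2 libraries differ in make-up, as given above, and the part of the other GABAergic types in these differences was not tested by this comparison.

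Among MGE interneuron-like cells alone 0 of the 6 genes passed edgeR's test, where 0.314% of 7639 genes were called (0.236% higher and 0.0785% lower). At an unadjusted p under 0.05 there was 1, Satb1, and DESeq2 called 0. Satb1 stood at 762 and 579 CPM in Sst-positive and at 412 and 341 CPM in Sst-negative cells, with no overlap (0.83 ± 0.24, adjusted p = 0.261, and 0.0860 to 0.757 over the alternatives). Lhx6 stood at 341 and 275 CPM against 251 and 241 CPM (0.32 ± 0.22), and Nxph2 at 437 and 318 CPM against 330 and 294 CPM (0.27 ± 0.24). Maf stood at 553 and 421 CPM against 738 and 481 CPM (-0.33 ± 0.27). Nxph1 was nearly equal, at 6934 and 7483 CPM against 7024 and 7482 CPM (-0.02 ± 0.20), and Sox6 differed by 0.15 ± 0.21. Of 12 partner genes tested, Npy was called (3.23 ± 0.24, adjusted p = 0.000858). Npy and Sst are both markers used to name this class.

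The genes were also found together in single cells. After thinning, MGE interneuron-like cells had a UMI of 5 of the 8 genes at the median in both libraries, and 100% and 97.3% had at least 3. Excitatory neuron-like cells had 0 at the median, and 0.174% and 0% had at least 3. RGC-like cells had 1 at the median. Within the GABAergic class, 100% and 93.9% of Lhx6-positive cells had a Sox6 UMI and 100% in both libraries had a Nxph1 UMI. Among the 26 and 140 GABAergic cells without a Nxph1 UMI, 0 had one of Lhx6 or Nxph2, which limits the share of such cells with a UMI to 13.2% and 2.60% at this depth and does not limit co-expression. Nxph1 was found in 100% of the 33 and 40 Nxph2-positive cells. Maf was found in 83.3% and 79.6% of Lhx6-positive against 40.0% and 19.6% of Lhx6-negative cells. The share of Sst-positive cells with a gene and these shares come from cells of the same 2 libraries, and cells are not replicates.

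The genes whose levels were most alike were sought over 14 sums of class and library and 15740 genes, as a description. The closest to Lhx6 were Slc32a1, the vesicular GABA transporter, Gm14204 and Cntnap3 (Pearson r of log2 levels 0.999, 0.999 and 0.998). Gm14204 overlaps Slc32a1 in the RefSeq annotation, and how the counting handled strand is not given in the sources used here. Nxph2 was closest to Gad1, which makes GABA, and to Dlx6os1 and Sp9 (0.991, 0.989 and 0.984), and Nxph1 to Nxph2, Pde4dip and Gm1992 (0.980, 0.975 and 0.968). Sox6 was closest to Cux1, Alk and Srgap2 (0.940, 0.912 and 0.904), Satb1 to Arl5a, Gm6525 and Gm13889 (0.959, 0.959 and 0.951), and Maf to Ptprm, Rara and Tcim (0.951, 0.935 and 0.919). The sums share their libraries. MGE interneuron-like cells were the only GABAergic class in them, and the other GABAergic cells were left out. Likeness to genes of GABAergic cells in general was therefore not compared across GABAergic types. Nkx2-1 and Lhx8 had under 50 UMIs in these sums and were not compared.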

How the data were processed

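Single-cell suspensions of the dorsal telencephalon were processed with the 10x Genomics 3′ gene expression protocol, and per the labels the submitters' processing notes name Cell Ranger 7.0.0 and mm10. The authors deposited unnormalised UMI counts for 32285 genes in each barcode. The 2 libraries were treated as replicates of 1 group, and they shared 3 barcodes (1 among the cells kept). The libraries differ beyond sampling noise (chi-square per degree of freedom 26.2 over 20105 genes).

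With scanpy 1.11.5, barcodes needed 1000 detected genes and a mitochondrial share of no more than 10%, and 12 and 48 doublets called by Scrublet were removed (0.991% and 2.44%). Cells were normalised to 10000 UMIs, and 2000 variable genes without the 27 held-out genes, 30 principal components and Leiden clustering at resolution 1 gave 22 clusters. The GABAergic clusters were divided into 8 sub-clusters. A cluster was named X-like when at least 3 markers of a list were raised (log2 difference of at least 1 to the median cluster, in at least 25% of cells). A cluster with more markers of another list than of its own among its 10 leading genes stayed unnamed, and a sub-cluster without a marker of its list there needed 50% of the list raised. The mixed sub-cluster failed on both counts. Names rebuilt this way may differ from those of the study.

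UMIs were summed per class and library and tested with edgeR 4.0.16 (R 4.3.3, quasi-likelihood test, TMM, filterByExpr) in 1 fit over the classes that held 10 or more cells in both libraries, or over the 4 sums compared for Sst (Sst itself left out), with Benjamini-Hochberg adjustment over all genes tested and calls under 0.05. The tests were checked on simulated counts. DESeq2 1.42.0, other cell and gene filters, other clusterings, thinning and a replicate block were tried. Sums with the same number come from the same library, so the numbers pair the samples. The correlations of their deviations from the class means were 0.18, 0.13, 0.26, 0.081, 0.23 and 0.12 in the 6 comparisons. Shares carry exact Clopper-Pearson intervals.

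The 8 genes and the lists were chosen with earlier results of these data known. The genes named are those 8, Sst, up to 4 called partner genes with the largest change per comparison, and the 3 genes most alike to each of the 8 (Pearson correlation of log2 of CPM + 10, genes of at least 50 UMIs). The other genes and cells named as markers were added to say what a class is. Some genes of the partner list are counted but their own values are not reported here. The others on it were Zeb2, Cxcr4, Ackr3, Erbb4, Npy, Etv1, St18, Gbx2, Lmo3, Cux2, Mef2c, Elfn1, Zfhx3, Shh, Gbx1 and Nkx6-2.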

Additional observations from a re-analysis of the deposited data

Results flagged for a closer look

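UMIs of the 8 genes were also present in the 513 and 666 barcodes that the filters on detected genes, mitochondrial UMIs and doublets removed, which enter no comparison and had a median of 965 and 1608 UMIs. Over both libraries these barcodes held 90 UMIs of Lhx6, 5038 of Sox6, 472 of Satb1, 223 of Maf, 1393 of Nxph1 and 57 of Nxph2, each above the limit of 3 UMIs that a count of 0 allows in either library. Nkx2-1 had 0 and 5 UMIs and Lhx8 0 and 3. Lhx6 stood at 22.2 and 8.69 CPM and Nxph1 at 247 and 197 CPM there, which is between the levels of MGE interneuron-like and excitatory neuron-like cells. Over all retained cells Lhx6 stood at 10.1 and 7.36 CPM and Nxph1 at 241 and 212 CPM. Which cells these barcodes came from was not tested.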

How the results depend on the processing

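All numbers below are counts of called genes unless stated. The 6, 5 and 5 genes called in GABAergic against excitatory neuron-like cells, GABAergic against RGC-like cells and MGE interneuron-like against other GABAergic cells were each called under every alternative run, except Nxph2 in the last comparison under DESeq2 (adjusted p = 0.114) and Nxph1 there at Leiden resolution 2 (0.0921), and Sox6 was also called there with the compared classes alone in the fit (0.0121) and without the filter on low counts (2.35e-12). With at least 500 genes per cell GABAergic against excitatory cells gave 1748 calls in place of 2988, and with the compared classes alone MGE interneuron-like against other GABAergic cells gave 795 in place of 1386. Without the filter 7 and 6 of the 8 genes were called against excitatory and RGC-like cells, where 14.4% and 28.9% of 25005 genes were called. With the compared classes alone 7 were called against excitatory cells, where 21.8% of 14565 genes were called. Nkx2-1 was in each case the gene added (edgeR adjusted p = 1.29e-05, 0.000150 and 0.0203). It had 0 UMIs in the second group each time, so that these calls and counts are descriptions. With doublets kept, RGC-like against excitatory cells called 1 of the 8 genes in place of 3, where 50.2% of genes were called. With the compared classes alone that comparison called Satb1 as well (edgeR adjusted p = 0.0340), where 64.6% of genes were called.

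Sst-positive against Sst-negative GABAergic cells gave 32 calls, and 18 with DESeq2 size factors, 267 with DESeq2, 531 with a replicate block for the library, 1043 without the filter on low counts, 9 with classes from one part of the UMIs, 86 at 3 Sst UMIs, 6 after thinning and 94 without the mixed sub-cluster. It gave 0 with at least 500 genes and 0 with at most 5% mitochondrial UMIs, by edgeR, where 1300 and 1092 genes had an unadjusted p under 0.05. Of the 8 genes, 0 were called, but 1 by DESeq2, where 2.92% of 9129 genes were called. There were 5 each without the filter and with the block, where 5.44% of 19179 and 5.82% of 9129 genes were called. Within MGE interneuron-like cells 24 calls became 43 (DESeq2), 145 (no filter), 137 (block), 42 (5% mitochondrial), 38 (one part), 56 (3 Sst UMIs), 8 (thinned) and 1 (mixed sub-cluster counted in). The block changed no other call of the 8 genes.

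Log2 differences changed sign for genes that were not called. RGC-like against excitatory cells gave Lhx6 -0.79 with 500 genes, -1.68 with doublets kept, -0.046 at resolution 0.5 and -0.47 with held-out genes in clustering, and Nxph2 1.63 with 5% mitochondrial UMIs, 1.87 with doublets and 0.21 with held-out genes. Sox6 gave 0.55 for MGE interneuron-like against RGC-like cells. For Sst within MGE interneuron-like cells, at resolution 2 Nxph2 gave -0.094 and Nxph1 0.046, and Nxph1 gave 0.040 with the mixed sub-cluster. The cause of these changes was not tested. The alternatives that replace the GABAergic class by MGE interneuron-like cells or move the mixed sub-cluster were chosen after seeing the data. With 1 library left out a comparison has no test. On the log2 scale of CPM + 1, all 19 called differences had the same sign within each library, and among them Satb1 in GABAergic against RGC-like cells stood at 1.23 without replicate 2 and 2.36 without replicate 4, and Lhx6 in MGE interneuron-like against other GABAergic cells stood at 3.83 without replicate 2 and 8.20 without replicate 4, where the second group had 0 UMIs. Nxph1 in RGC-like against excitatory cells had a ratio of levels of 0.149 in replicate 2 and 0.0842 in replicate 4. With the filter, Nkx2-1 (18 UMIs) was tested only with the compared classes alone against excitatory cells and, not called, at resolution 0.5 in MGE interneuron-like against other GABAergic cells, and Lhx8 (5 UMIs) in no fit.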

Other observations

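In Cajal-Retzius-like cells of replicate 4, Nxph2 had 28 UMIs in a single cell, while the other 23 cells and all 16 of replicate 2 had 0. Sox6 in meningeal-like cells stood at 356 CPM in replicate 2, where 313 UMIs came from 5 of 20 cells, and at 19.9 CPM in replicate 4. Among dividing GABAergic precursor-like cells of replicate 4, 1 of 40 cells carried all 9 Lhx6 UMIs.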
